A study of Homo sapiens with 6 samples.

Results

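The histone cluster genes are the families of H1, H2A, H2B, H3 and H4 genes that lie together in the genome. They were described in poly-A selected RNA of MOLM-13, a line of AML-M5, the monocytic form of acute myeloid leukaemia. Members were all genes whose name in the deposited table joins a HIST1, HIST2, HIST3 or HIST4 cluster to a histone type, with the pseudogene names ending in PS left out. This gave 57 of the 24878 genes. Each of the 3 groups had 2 libraries. KO day 5 and KO day 3 cells carried a vector for knockout (KO) of CaMK2D that doxycycline switches on, and had been induced for 5 and 3 days. The control cells carried a control vector and had no doxycycline, so the vector and doxycycline differ at once and their parts cannot be told apart. CaMK2D is a calcium/calmodulin-dependent kinase. Whether the libraries of a group were separate cultures is not said, so a p-value reflects the spread of these 6 libraries alone, and that spread may be technical.

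Most histone cluster genes are replication-dependent: they are transcribed when DNA is copied in S phase and supply the core of the nucleosome (H2A, H2B, H3 and H4) and the linker histone (H1) that binds the DNA between nucleosomes. Their mRNAs usually have no poly-A tail. The 3′ end is a short stem-loop, bound by the stem-loop binding protein SLBP and cut by a machinery that uses the U7 small nuclear RNA, and the mRNA is degraded when DNA synthesis stops. Some members also give longer transcripts that run past the stem-loop to an ordinary poly-A signal, and these are known from differentiated and non-dividing cells. Selection with poly-T beads keeps tailed RNA, so the values here describe the tailed or A-rich part of each gene's RNA and not its total.

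Total counts ranged from 15456770 to 21081298 per library, and a count of 0 allowed up to 0.193 CPM (counts scaled to the library's total) in the shallowest library, which covers counting error only. CAMK2D mRNA stood at 29 and 28.1 CPM in the KO day 5 libraries, 14.7 and 15.6 in the KO day 3 libraries, and 23.0 and 14.5 in the controls, so the KO libraries are identified by their labels and not by this mRNA. All 12 myeloid markers had a row and 11 were tested. At KO day 5, 1 was called higher (CEBPA) and 3 lower (FLT3, ITGAM and SPI1), and at KO day 3 the same 3 were lower and 0 higher. Over all genes tested 7.44% were called higher and 7.05% lower at KO day 5, and 5.72% and 5.99% at KO day 3. FLT3, the receptor kinase that is mutated in this line, was the one with the smallest adjusted p and stood between 241 and 1063 CPM in the 6 libraries. FLT3 was lower in KO cells at both days, with a log2 fold change on day 5 of -1.93 (SE 0.14, edgeR adjusted p = 0.000392), and on day 3 of -1.54 (SE 0.14, edgeR adjusted p = 0.00135). Of 14 markers of other cell types, 5 had a row, and COL1A1 and ALB had at most 5 counts in any library. The summed CPM of these 5 was 66.05 and 56.76 at KO day 5, 60.94 and 58.93 at KO day 3, and 248.1 and 149.7 in controls, nearly all from PECAM1 and KRT18, and their part in the histone values was not tested.

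By cluster, 40 members belonged to HIST1 on chromosome 6, 13 to HIST2 and 3 to HIST3 on chromosome 1, and 1 to HIST4 on chromosome 12. By type there were 5 H1, 12 H2A, 17 H2B, 10 H3 and 13 H4 genes. GENCODE release 29 (GRCh38) calls 54 of them protein-coding and 3 (HIST2H2BA, HIST2H2BC and HIST2H2BD) transcribed pseudogenes. In 12 members at least 50% of all 50-base windows also occurred in another histone cluster gene, which makes their split of reads uncertain. A further limit is that 13 members overlap another gene, whose reads cannot be told apart without strand.

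The annotated 3′ ends fall into 2 sets. In 27 members an annotated transcript ends at least 100 bases past the 16-base stem-loop or carries a poly-A signal (AATAAA or ATTAAA) in its last 50 bases, and these are called extended here. The other 30 members, called short, end at or before the stem-loop or less than 100 bases past it. In 6 of these the stem-loop is inside the annotation, and the other 24 end before it or lack a match to it. In 19 of those 24 the annotation holds the coding sequence alone. The split was made from the annotation and after counts had been seen, so no test was made on it. The stem-loops below, from GENCODE release 29 transcripts on GRCh38, show how alike the ends are: the stem-loop is in capitals, between 5 bases on either side.

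HIST1H2AC, H2A, extended, chr6:26124664-26124689, plus strand: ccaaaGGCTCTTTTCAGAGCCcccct
HIST3H2A, H2A, extended, chr1:228457364-228457389, minus strand: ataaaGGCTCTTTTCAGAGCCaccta
HIST1H2AG, H2A, extended, chr6:27133510-27133535, plus strand: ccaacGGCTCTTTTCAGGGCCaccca
HIST1H4I, H4, extended, chr6:27139649-27139674, plus strand: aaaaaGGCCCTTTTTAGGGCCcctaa
HIST1H4B, H4, short, chr6:26026896-26026921, minus strand: ccaatGGCCCTTTTCAGGGCCgccca

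Of the 27 extended members, 22 carry such a signal at an annotated end, and HIST1H4I is among the 5 that do not. The signals of 2 members with high levels are shown in capitals, read to the last annotated base.

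HIST1H2AC, chr6:26139083-26139102, plus strand: gaggtAATAAAaggtaatgc
HIST3H2A, chr1:228456979-228457007, minus strand: ctgatATTAAAagtatttatgatctctaa

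Short members show no such signal. The last 30 annotated bases of the 3 members that passed the test on day 5 are printed below, with no capitals since they hold neither a whole stem-loop nor a signal. The end of HIST1H4C has 21 A among its 30 bases, with 18 A in 1 window of 20 bases. The most A-rich 20-base window held a median of 10 A over the 30 short members (range 7 to 18) and 13 A over the 27 extended members (range 9 to 20). The annotated HIST1H1E transcript stops 13 bases into a stem-loop, and that of HIST1H1B stops at the end of its coding sequence.

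HIST1H4C, chr6:26104281-26104310, plus strand: tgagaacttcaaaaaacaaaaacaaaaaaa
HIST1H1E, chr6:26157078-26157107, plus strand: gcccaacacaacccaaaggctcttttcaga
HIST1H1B, chr6:27866849-27866878, minus strand: gccaagaaggcggctgccaaaaagaagtag

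Histone cluster reads were rare in every library. The 57 members summed to 934 and 1671 counts at KO day 5, 664 and 860 at KO day 3, and 1040 and 1562 in controls, which is at most 0.00947% of a library's counts. On the CPM scale, with libraries scaled by TMM factors, the sums were 52.9 and 91.3 at KO day 5, 34.6 and 47.3 at KO day 3, and 66.8 and 74.9 in controls. Both KO day 3 libraries lay below both controls, and the KO day 5 libraries lay on either side of the controls. HIST1H2BK, an H2B gene, alone held 30.5% and 21.0% of the histone counts in controls. Without it the sums were 48.2 and 81.2 CPM at KO day 5, 29.8 and 35.7 at KO day 3, and 46.5 and 59.2 in controls. In bulk RNA fewer cells in S phase and less histone RNA per cell cannot be told apart.

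**Figure D1:**
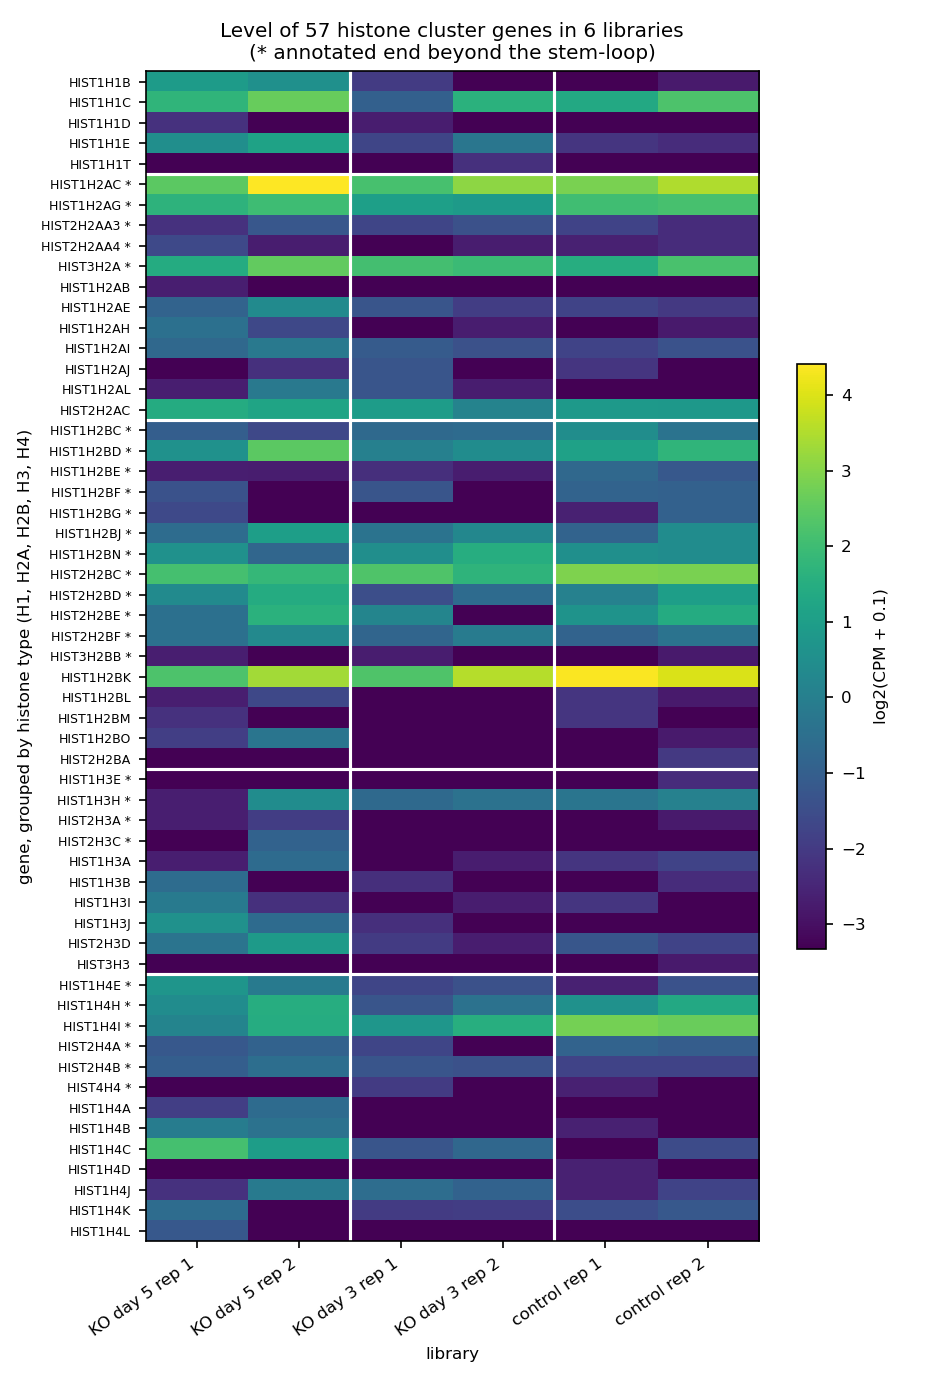
Levels of the 57 histone cluster genes as log2(CPM + 0.1), 1 row per gene grouped by histone type and 1 column per library, with the extended members starred. Most rows are near the bottom of the scale in all 6 libraries, and several unstarred H1, H2A, H3 and H4 rows are brighter in the KO day 5 columns than elsewhere.

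Per length, HIST1H2BK had the highest mean level over the 6 libraries, at 29.4 FPKM, the deposited unit that scales counts by gene length and library total. HIST1H2AC followed at 5.81, HIST1H1C at 5.18, HIST2H2AC at 4.68 and HIST3H2A at 4.36 FPKM, and these 4 overlapped each other from library to library. HIST1H4C, HIST1H2BD and HIST1H4I came next at 2.80, 2.77 and 2.71 FPKM. The other 49 members averaged 1.42 FPKM or less. The FPKM of a short member uses its short annotated length, so reads from an unannotated extension would not enter it.

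Summed by cluster, HIST1 stood at 39.1 and 69.4 CPM at KO day 5, 21.0 and 37.3 at KO day 3, and 50.8 and 55.3 in controls. HIST2 stood at 11.2 and 16.1 CPM at KO day 5, 9.23 and 6.21 at KO day 3, and 13.3 and 15.1 in controls. Both clusters were lower in both KO day 3 libraries than in either control, while the KO day 5 libraries overlapped the controls. HIST3, made up almost wholly of HIST3H2A, ran from 2.66 to 5.74 CPM with no separation of the groups, and HIST4H4 had at most 3 counts in a library.

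The histone types did not behave alike. Linker H1 genes summed to 6.45 and 9.51 CPM at KO day 5, 0.834 and 3.79 at KO day 3, and 2.57 and 4.84 in controls, so only the KO day 5 libraries stood clear of the rest. H3 genes summed to 3.62 and 4.81 CPM at KO day 5, 0.886 and 0.825 at KO day 3, and 1.29 and 1.63 in controls, and no pair of groups overlapped. H4 genes summed to 10.9 and 11.1 CPM at KO day 5, 3.81 and 5.11 at KO day 3, and 9.51 and 10.2 in controls. The similar H4 totals at KO day 5 and in controls held different genes, as the single members below show. H2B genes summed to 16.2 and 29.3 CPM at KO day 5, 15.2 and 21.8 at KO day 3, and 37.2 and 35.9 in controls. All 4 KO libraries lay below both controls. HIST1H2BK alone supplied 20.4 and 15.7 CPM of the control sums, and 4.70 and 10.1 CPM at KO day 5. The 12 extended H2B members, which leave it out, overlapped at day 5. Their sums were 11.2 and 18.3 CPM at KO day 5, 10.4 and 10.2 at KO day 3, and 16.6 and 19.9 in controls. H2A genes ran from 13.9 to 36.5 CPM and the KO day 5 libraries, at 15.7 and 36.5, spanned the controls. Within H2A the 5 extended members (11.4 and 31.2 CPM at KO day 5, 14.1 and 20.2 in controls) overlapped likewise. The 7 short H2A members did not, at 4.30 and 5.24 CPM at KO day 5, 3.13 and 1.54 at KO day 3, and 2.18 and 2.11 in controls. The types thus differ in their mix of short and extended members, and all 5 H1 genes are short. No test was made on these sums.

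**Figure D2:**
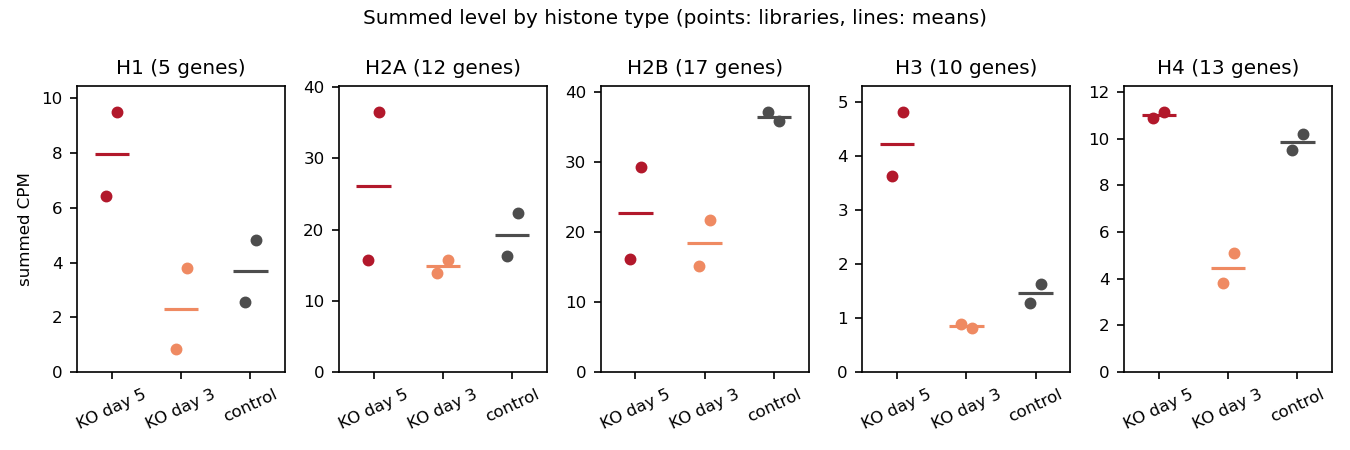
Summed CPM of the histone cluster genes of each type in KO day 5, KO day 3 and control libraries, with 1 point per library and a line at the mean of 2. H1 and H3 are highest at KO day 5, and the H4 sums of KO day 3 lie below those of the other groups. H2B is highest in controls, where HIST1H2BK supplies a large part of it.

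Split by annotated end, short members summed to 25.6 and 32.6 CPM at KO day 5, 10.2 and 18.1 at KO day 3, and 26.4 and 24.2 in controls. The number of short members with at least 10 counts was 13 and 16 of 30 at KO day 5, 3 and 4 at KO day 3, and 3 and 3 in controls. The sums of KO day 5 and control thus overlapped although more of the genes reached 10 counts at KO day 5. The share of all genes that reach 10 counts is not given here, and the split was made after counts had been seen. No direction is therefore read from these numbers. In controls HIST1H2BK alone supplied 317 of 411 and 328 of 505 counts of the short members. Extended members summed to 27.2 and 58.7 CPM at KO day 5, 24.5 and 29.1 at KO day 3, and 40.4 and 50.7 in controls, and 11 to 14 of 27 reached 10 counts in every library.

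**Figure D3:**
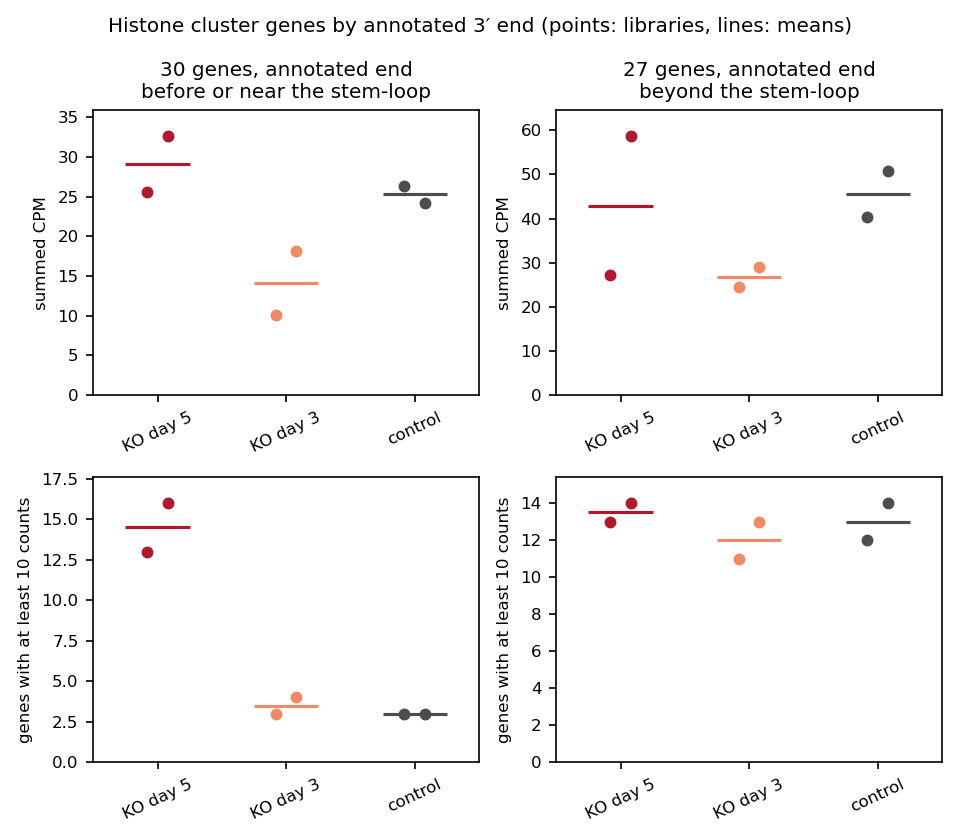
Summed CPM (upper panels) and number of genes with at least 10 counts (lower panels) for the 30 short and 27 extended members in KO day 5, KO day 3 and control libraries, with points for libraries and lines for means. Short members with 10 counts number 13 and 16 at KO day 5 against 3 or 4 elsewhere, and extended members stay between 11 and 14. The share over all genes is not given, and no direction is read from these numbers.

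KO day 5 was first set against control in an edgeR fit over the 14601 genes that passed a count filter. Of the 57 members 25 passed it, 15 extended and 10 short, and 8 of these reached 10 counts in both libraries at KO day 5 alone. Members that pass through 1 group had to differ, so counts over the tested members do not support a direction. At day 5, 3 members were called higher (HIST1H1B, HIST1H1E and HIST1H4C) and 0 lower at an adjusted p under 0.05, and 10 had an unadjusted p under 0.05. Over all genes tested 7.44% were called higher and 7.05% lower. All 3 called members are among the 8 that reached 10 counts in both libraries at KO day 5 alone. They were thus tested because they were high there. All 3 are short, and none shares a 50-base window with another histone cluster gene or overlaps another gene.

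HIST1H1B (ENSG00000184357, chr6:27866849-27867529, minus strand) encodes a linker histone. It had 32 and 25 counts at KO day 5, 3 and 0 at KO day 3, and 0 and 1 in controls, or 2.70 and 2.08 FPKM, 0.226 and 0 FPKM, and 0 and 0.0697 FPKM. The KO day 5 libraries were far above the other 4, which were at or near 0. The log2 fold change of KO day 5 over control was 5.56 (SE 1.39, edgeR adjusted p = 0.0347). Since the controls held 1 count in all, the plain ratio of scaled counts was 57.7 with an exact 95% counting interval of 9.95 to 2319.

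HIST1H1E (ENSG00000168298, chr6:26156354-26157107, plus strand), another linker histone gene, had 23 and 38 counts at KO day 5, 4 and 13 at KO day 3, and 2 and 2 in controls. These are 1.75 and 2.86 FPKM at KO day 5, 0.272 and 0.911 at KO day 3, and 0.172 and 0.126 in controls. No groups overlapped, and KO day 3 lay between the other 2. It was higher at KO day 5 than in control by 3.85 on the log2 scale (SE 0.97, edgeR adjusted p = 0.0353). HIST1H1C, the linker gene with the highest level, did not follow them: it had 5.10 and 9.80 FPKM at KO day 5, 0.640 and 4.45 at KO day 3, and 3.83 and 7.24 in controls, and the groups overlapped. Its log2 fold change at day 5 was 0.37 (SE 0.80, edgeR adjusted p = 0.799). HIST1H1D and the testis linker gene HIST1H1T had at most 2 counts in a library.

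HIST1H4C (ENSG00000197061, chr6:26103876-26104310, plus strand) encodes histone H4 and carries the A-rich annotated end shown above. It had 76 and 34 counts at KO day 5, 6 and 9 at KO day 3, and 0 and 5 in controls. In FPKM these are 10.0 and 4.43 at KO day 5, 0.708 and 1.09 at KO day 3, and 0 and 0.545 in controls, so no groups overlapped. The log2 fold change at KO day 5 was 4.49 (SE 1.06, edgeR adjusted p = 0.0291).

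These 3 calls depend on single libraries. Without control replicate 1 none of the 57 members was called (edgeR adjusted p = 0.161 for HIST1H1B, 0.128 for HIST1H1E and 0.0667 for HIST1H4C), and none without KO day 5 replicate 1. Without control replicate 2 only HIST1H4C was called (edgeR adjusted p = 0.0177). The remaining control held 0 counts of HIST1H4C and HIST1H1B, so their fitted folds are no bound, and against 3 counts in that library they were at least 16-fold and at least 8.25-fold higher. Without KO day 5 replicate 2 the adjusted p was 0.0894 for HIST1H1B, 0.140 for HIST1H1E and 0.0434 for HIST1H4C by edgeR. With the filter left out, HIST1H3J was called too and HIST1H2BK and HIST1H4I were called lower, at 4 higher and 2 lower of 57, against 5.83% and 7.17% of 24878 genes.

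**Figure D4:**
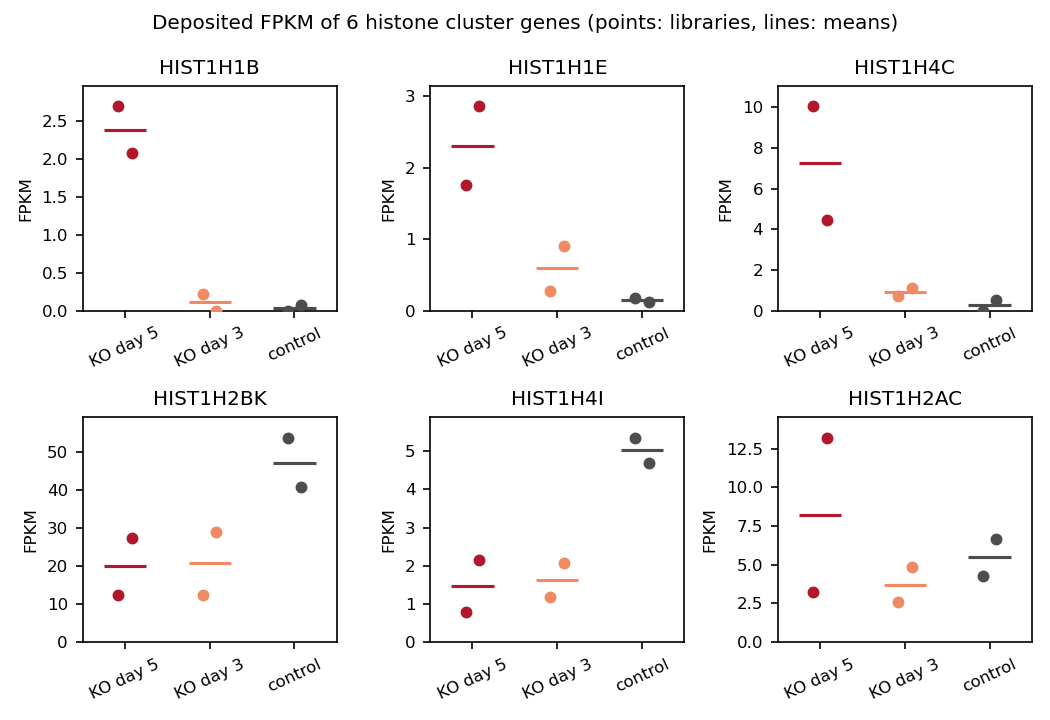
Deposited FPKM of 6 histone cluster genes in KO day 5, KO day 3 and control libraries, with points for libraries and lines for means. HIST1H1B, HIST1H1E and HIST1H4C are highest in both KO day 5 libraries, HIST1H2BK and HIST1H4I are highest in both controls, and HIST1H2AC overlaps between groups.

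The promoters of the 2 called linker genes and of HIST1H2BK are shown because they differ in motifs while lying in 1 cluster. The sequences are RefSeq windows on GRCh38.p14 from 250 bases before to 50 after the start. Capitals mark the CCAAT box, the TATA box TATAAA, the octamer ATTTGCAT and the H1 box AAACACA on either strand, overlapping matches included, as searched in the 46 members with a matched window.

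HIST1H1B, chr6:27867539-27867838, minus strand: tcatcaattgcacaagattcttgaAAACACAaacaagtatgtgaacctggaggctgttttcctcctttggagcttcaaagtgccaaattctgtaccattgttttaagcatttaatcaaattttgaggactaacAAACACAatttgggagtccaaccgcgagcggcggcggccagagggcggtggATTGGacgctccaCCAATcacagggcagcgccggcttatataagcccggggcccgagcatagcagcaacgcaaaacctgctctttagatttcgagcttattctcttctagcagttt
HIST1H1E, chr6:26156079-26156378, plus strand: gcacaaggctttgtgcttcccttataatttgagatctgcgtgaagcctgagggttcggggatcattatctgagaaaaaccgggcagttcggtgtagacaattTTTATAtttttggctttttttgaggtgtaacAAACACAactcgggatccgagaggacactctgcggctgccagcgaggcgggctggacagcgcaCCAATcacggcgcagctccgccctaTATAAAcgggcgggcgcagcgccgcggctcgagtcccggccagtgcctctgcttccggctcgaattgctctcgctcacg
HIST1H2BK, chr6:27146809-27147108, minus strand: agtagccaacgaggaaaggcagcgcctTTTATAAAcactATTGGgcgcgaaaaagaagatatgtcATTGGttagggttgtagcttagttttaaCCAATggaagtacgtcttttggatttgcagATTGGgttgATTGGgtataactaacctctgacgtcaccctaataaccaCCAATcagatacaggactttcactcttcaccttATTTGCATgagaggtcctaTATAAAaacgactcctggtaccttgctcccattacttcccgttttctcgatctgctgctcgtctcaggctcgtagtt

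AAACACA was in all 5 H1 promoters and in 8 of 46 members (17.4%), against 5.76% of 27305 promoters of the same length. The octamer was in 7 of 9 H2A and 10 of 14 H2B promoters and in none of the H1, H3 or H4 promoters matched, which is 37.0% of members against 1.80% of all promoters. CCAAT was in 37 of 46 (80.4%, against 35.7% of all promoters), held by every matched H1, H2A, H2B and H3 promoter and by 2 of 11 H4 promoters. TATAAA was in 32 of 46 (69.6%, against 12%). A match describes the letters of the window and is not a bound site.

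Some other H3 and H4 genes were also highest in both KO day 5 libraries, without a call. HIST1H3J, HIST2H3D, HIST1H4B and HIST1H4E, given here, are among the 8 that reached 10 counts in both libraries at KO day 5 alone. They were thus tested because they were high there, so their values do not support a direction. HIST1H3J, an H3 gene that overlaps HIST1H2AM, had 25 and 10 counts at KO day 5, 2 and 0 at KO day 3, and 0 and 0 in controls. It was at least 5.83-fold higher at KO day 5 than in controls, taking 3 counts per library as the limit of a zero, and had an edgeR adjusted p of 0.0541. HIST2H3D, which shares 80.4% of its windows with a pseudogene, had 1.68 and 4.41 FPKM at KO day 5, 0.375 and 0.129 at KO day 3, and 0.787 and 0.462 in controls, at 2.23 (SE 0.96, edgeR adjusted p = 0.159). HIST1H4B, named after its values were seen, had 15 and 12 counts at KO day 5, 0 and 0 at KO day 3, and 1 and 0 in controls. HIST1H4B at KO day 5 was 27.3 times its control level by scaled counts (exact 95% counting interval 4.51 to 1119, edgeR adjusted p = 0.0975). HIST1H4E, also named after its values were seen, differs from these in being extended: it had 27 and 15 counts at KO day 5, 4 and 5 at KO day 3, and 1 and 6 in controls.

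Other named H3 and H4 members showed no such separation. HIST1H4J shares 81.2% of its windows with HIST1H4K, so their reads are uncertain, and it had 0.308 and 2.28 FPKM at KO day 5, 1.51 and 1.13 at KO day 3, and 0.173 and 0.509 in controls. Its near copy HIST1H4K had 10 and 0 counts at KO day 5, 3 and 3 at KO day 3, and 4 and 7 in controls. HIST1H3H had 0.0464 and 1.05 FPKM at KO day 5, 0.415 and 0.513 at KO day 3, and 0.575 and 0.767 in controls. In each of these genes the KO day 5 libraries differed from each other more than the group means did.

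Counted without a filter, both KO day 5 libraries lay above both controls for 16 of 57 members and below both for 7, against 20.0% and 23.5% of all 24878 genes. For the 30 short members the counts were 13 above and 1 below, and for the 27 extended members 3 above and 6 below. A member with no counts in a control library cannot lie below both controls, and the shares over all genes are not matched for level. These counts therefore do not support a direction. The median log2 fold change of the 25 tested members was 0.39, with 3.04 for the 10 short and 0.04 for the 15 extended, beside 0.01 over all genes tested. With HIST1H3J at its bound the median of the 10 short members was 2.39. Of these 10, 6 reached 10 counts in both libraries at KO day 5 alone, so the filter itself favours a positive median and nothing is read from it.

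Levels of HIST1H2BK and HIST1H4I were below the controls in KO cells at both days, without passing the test. HIST1H2BK (ENSG00000197903, chr6:27146418-27146798, minus strand), an H2B gene, had 12.5 and 27.5 FPKM at KO day 5, 12.4 and 29.1 at KO day 3, and 53.8 and 40.8 in controls. All 4 KO libraries were below both controls. Its log2 fold change over control at day 5 came to -1.28 (SE 0.50, edgeR adjusted p = 0.135), and the day 3 value came to -1.14 (SE 0.50, edgeR adjusted p = 0.183). HIST1H4I (ENSG00000276180, chr6:27138588-27139881, plus strand), an extended H4 gene, had 0.799 and 2.15 FPKM at KO day 5, 1.19 and 2.08 at KO day 3, and 5.35 and 4.69 in controls, again with no overlap between KO and control. The corresponding values were -1.81 (SE 0.53, edgeR adjusted p = 0.0567) for day 5, and for day 3 -1.57 (SE 0.52, edgeR adjusted p = 0.0914). HIST1H4I was called lower on day 5 without KO day 5 replicate 2 (-2.67, edgeR adjusted p = 0.0449), and on day 3 without KO day 5 replicate 1 (edgeR adjusted p = 0.0492). Both day comparisons share the control libraries. HIST2H2BC, named after its values were seen, is a transcribed pseudogene that overlaps HIST2H2BD and had 76 and 63 counts at KO day 5, 91 and 58 at KO day 3, and 117 and 148 in controls.

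KO day 3 set against control gave 0 of 25 tested members called by edgeR in either direction, against 5.72% higher and 5.99% lower of all genes tested, and 5 members had an unadjusted p under 0.05. DESeq2 called 1 member lower, HIST1H4I, where it called 1162 genes higher and 1237 lower of 24878. With the filter left out 2 members, HIST1H2BK and HIST1H4I, were called lower and 0 higher, against 6.03% and 5.73% of 24878 genes. Without a filter, both KO day 3 libraries lay below both controls for 19 of 57 members and above both for 6, against 24.5% and 20.6% of all genes. Of the 27 extended members 14 lay below and 2 above, and of the 30 short members 5 lay below and 4 above. A member with no counts in a control library could not lie below both controls, and the shares over all genes are not matched for level. These day 3 counts therefore do not support a direction. The median of the 25 tested members was -0.53, with -0.85 for the 15 extended and 0.57 for the 10 short (the same without the 2 that had a group at 0 counts), beside a median near 0 over all genes tested.

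HIST1H2AG and HIST1H4H, both extended, were lower at KO day 3 than in controls without a call. Both were named after their values were seen, so they do not support a direction for the members. HIST1H2AG had 1.40 and 1.81 FPKM at KO day 5, 0.867 and 0.752 at KO day 3, and 1.78 and 1.92 in controls, and its KO day 3 value was -1.16 (SE 0.38, edgeR adjusted p = 0.0886). HIST1H4H had 0.584 and 1.31 FPKM at KO day 5, 0.142 and 0.293 at KO day 3, and 0.658 and 1.12 in controls, with -1.98 (SE 0.71, edgeR adjusted p = 0.107) at day 3. In both genes the KO day 3 libraries were the lowest 2 of the 6.

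KO day 5 set against KO day 3 asks whether members differed between the days, with doxycycline exposure and time differing at once. No member was called by edgeR (10 had an unadjusted p under 0.05), but only 4 genes in the whole table were, 0.0274% of those tested, so the test called almost nothing. Without a filter both KO day 5 libraries lay above both KO day 3 libraries for 24 of 57 members and below both for 1, against 18.0% and 16.8% of all genes. The 24 were 16 of the 30 short members and 8 of the 27 extended members. For a member with no counts in a KO day 3 library, lying below both was not possible, so these counts do not support a direction. The median of the 25 tested members was 1.06, with 2.39 for the 10 short (2.05 with HIST1H4B at its bound) and 0.48 for the 15 extended, beside 0.02 over all genes tested, and the same limit of the filter holds for these medians. The log2 fold change of KO day 5 over KO day 3 was 4.21 (SE 1.21, edgeR adjusted p = 0.214) for HIST1H1B, 2.91 (SE 0.94, edgeR adjusted p = 0.243) for HIST1H4C and 1.86 (SE 0.83, edgeR adjusted p = 0.337) for HIST1H1E. DESeq2 called 306 genes and 0 members. With the filter left out 1 member, HIST1H4C, was called higher and 0 lower, against 1.07% and 1.34% of 24878 genes (2.41% in either direction).

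**Figure D5:**
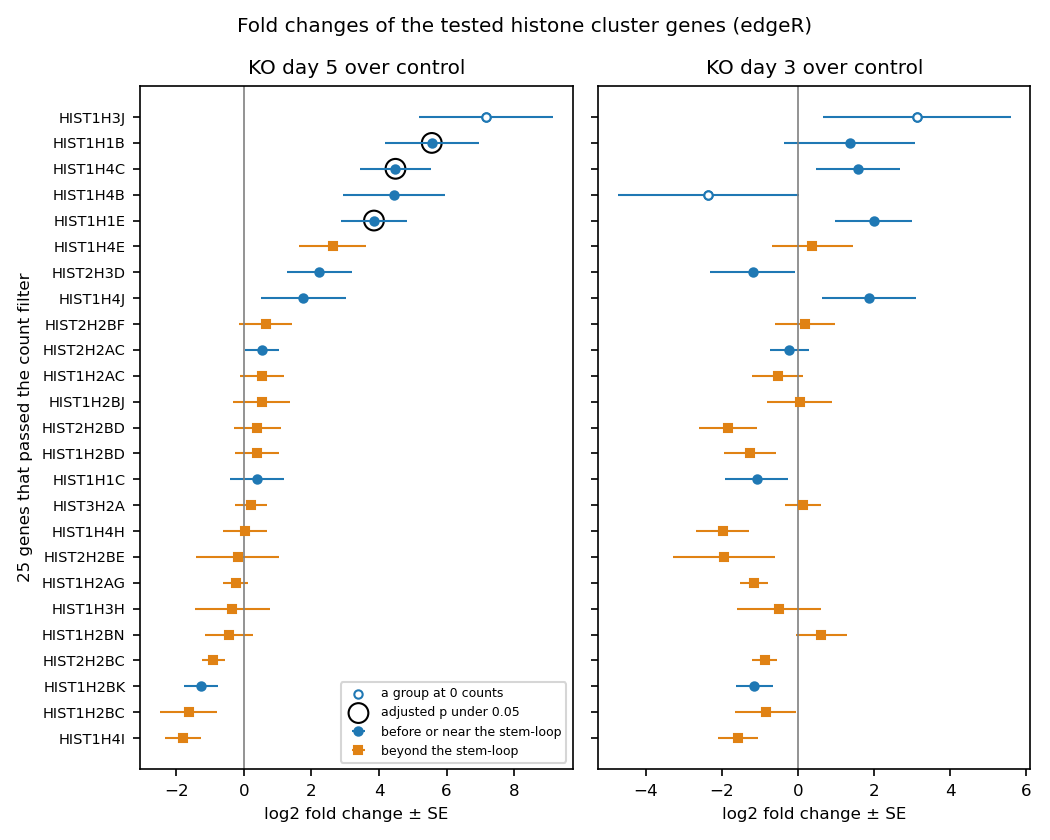
Log2 fold changes (edgeR) of KO day 5 over control and KO day 3 over control for the 25 tested members, with bars for 1 SE, circles for short and squares for extended members. Ringed genes (HIST1H1B, HIST1H4C and HIST1H1E) passed an adjusted p of 0.05, hollow points mark a comparison with a group at 0 counts, whose fitted value is no bound, and both panels share the controls.

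Among the H2A and H2B genes with high levels, several differed widely between the libraries of a group. HIST1H2AC (ENSG00000180573, chr6:26124145-26139116, plus strand), an extended H2A gene, had 3.27 and 13.2 FPKM at KO day 5, 2.59 and 4.85 at KO day 3, and 4.30 and 6.66 in controls. The KO day 5 libraries were the second lowest and the highest of the 6. Its log2 fold change at day 5 was 0.53 (SE 0.66, edgeR adjusted p = 0.645), and -0.77 without KO day 5 replicate 2. HIST1H2BD, an extended H2B gene, was alike, with 1.65 and 6.51 FPKM at KO day 5, 1.06 and 1.40 at KO day 3, and 2.38 and 3.65 in controls. HIST1H2BJ, extended as well, had 0.605 and 2.09 FPKM at KO day 5, 0.703 and 1.11 at KO day 3, and 0.477 and 1.30 in controls. KO day 5 replicate 2 was thus the highest library for all 3 genes, and replicate 2 lay above replicate 1 in every group. HIST3H2A, the H2A gene outside the large clusters, had 2.95 and 6.65 FPKM at KO day 5, 4.59 and 4.02 at KO day 3, and 3.04 and 4.93 in controls. Its difference at day 5 was 0.22 (SE 0.47) and at day 3 0.14 (SE 0.47), with edgeR adjusted p of 0.799 and 0.883. HIST2H2AC, a short H2A gene, had 6.77 and 5.82 FPKM at KO day 5, 4.61 and 2.44 at KO day 3, and 4.31 and 4.13 in controls. Both KO day 5 libraries lay above the other 4, with a log2 fold change over control of 0.54 (SE 0.51, edgeR adjusted p = 0.529).

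Histone genes outside the clusters, most of which give ordinary tailed mRNAs, together had far higher counts. Of 22 listed, 12 had a row and 9 were tested, and their summed level was 2122 and 1785 CPM at KO day 5, 1902 and 1780 at KO day 3, and 1732 and 1666 in controls. At KO day 5, 2 of the 9 were called higher and 0 lower, against 7.44% and 7.05% of all genes tested. H1FX, a linker variant, averaged 77.2 ± 20.8 CPM at KO day 5 and 28.9 ± 3.07 in controls (SD, n = 2 each), at 1.42 (SE 0.20, edgeR adjusted p = 0.00495). H3F3B, a gene of the replication-independent H3 variant, averaged 600.2 ± 17.4 CPM at KO day 5 and 361 ± 19.1 in controls, at 0.73 (SE 0.11, edgeR adjusted p = 0.00683). H3F3A, another gene of this variant, was called at neither day. It averaged 351.7 ± 50.4 CPM at KO day 5 and 362.6 ± 8.06 in controls, at -0.04 (SE 0.14, edgeR adjusted p = 0.862). At KO day 3, 1 was called higher and 1 lower, against 5.72% and 5.99% of all genes tested. H3F3B was higher by 0.54 (SE 0.11, edgeR adjusted p = 0.0218), and CENPA, the centromeric H3 variant, fell by 0.97 (SE 0.26, edgeR adjusted p = 0.0466).

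The genes that make or remove the stem-loop end are set here against the shares called over all genes tested, 7.44% higher and 7.05% lower at KO day 5, and 5.72% higher and 5.99% lower at KO day 3. Of 22 tested stem-loop processing genes, 1 rose and 1 fell at KO day 5: the cap-binding subunit NCBP2 at 0.52 (SE 0.12, edgeR adjusted p = 0.0255) and the Sm protein SNRPB at -0.46 (SE 0.13, edgeR adjusted p = 0.0478). SLBP itself had 76.9 and 53.7 CPM at KO day 5, 97.2 and 84.4 at KO day 3, and 118 and 86.2 in controls, with both KO day 5 libraries below both controls. Its day 5 value was -0.65 (SE 0.22, edgeR adjusted p = 0.0867). At KO day 3, 2 rose and 0 fell: NCBP2 at 0.45 (SE 0.12, edgeR adjusted p = 0.0428) and NELFE, a subunit of the NELF pausing complex, at 0.52 (SE 0.12, edgeR adjusted p = 0.0313). None of 10 tested stem-loop decay genes was called by edgeR at either day, the nearest being the uridylyl transferase TUT7 at 0.75 on day 5 (SE 0.22, edgeR adjusted p = 0.0525). Of 15 genes of ordinary cleavage and polyadenylation, RBBP6 rose by 0.49 (SE 0.14, edgeR adjusted p = 0.0492) and WDR33, which binds the AATAAA signal, fell by 0.48 (SE 0.13, edgeR adjusted p = 0.0415) at KO day 5, and 0 were called at day 3. On lists of this size these counts are near the shares over all genes.

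S phase is when replication-dependent histones are made. Of 31 S phase genes tested, 0 rose and 6 fell at KO day 5 (UNG, FEN1, CDK2, CDT1, MCM7 and CCNE1), against 7.44% and 7.05% of all genes tested. At KO day 3, 0 rose and 3 fell (CDK2, CDT1 and FEN1), against 5.72% and 5.99%. The medians were -0.65 at day 5 and -0.25 at day 3, beside medians near 0 over all genes tested. UNG, which removes uracil from DNA, had 45.9 and 34.8 CPM at KO day 5, 108 and 101 at KO day 3, and 83.9 and 85.3 in controls, at -1.07 on day 5 (SE 0.16, edgeR adjusted p = 0.00562). FEN1, the flap endonuclease of lagging-strand synthesis, had 57.7 and 39.2 CPM at KO day 5, 65.1 and 53.1 at KO day 3, and 106 and 99.9 in controls, at -1.08 on day 5 (SE 0.20, edgeR adjusted p = 0.0129). At day 5 the called histone members, which reached 10 counts in both libraries at KO day 5 alone, were higher. The called S phase genes were lower, and the summed level of the short histone members overlapped the controls. No link between these values was tested. The part of cell cycle position, of tail length and of RNA quality in these values was not tested.

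Of 22 tested histone chaperone and import genes, 1 rose and 1 fell at KO day 5, which is near the 7.44% and 7.05% over all genes tested. ASF1A, an H3 and H4 chaperone, had 80.3 and 129 CPM at KO day 5, 45.3 and 64.2 at KO day 3, and 31.7 and 39.9 in controls, at 1.55 (SE 0.27, edgeR adjusted p = 0.0146), and its groups did not overlap. CABIN1, part of the HIRA complex that deposits the replication-independent H3 variant, was at -0.64 (SE 0.15, edgeR adjusted p = 0.0272). No chaperone gene was called at day 3. The 20 listed RNAs that lack a poly-A tail were not analysed here.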

How the data were processed

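Poly-A selected RNA of 6 MOLM-13 libraries was sequenced, per the labels' protocols with poly-T beads and a library kit not stated to keep strand. Per the file headers, the authors deposited a raw read count and an FPKM value for each gene in each library. The submitters' processing notes name HISAT2, HTSeq 0.11.2, DESeq2 1.26.0 and GRCh38. How reads with several matches were counted, and with which annotation, is not given in the sources used here. Every one of the 24878 identifiers occurs in GENCODE release 29.

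Groups came from the labels. Counts went into edgeR 4.0.16 (R 4.3.3): filterByExpr (minimum count 10, minimum total 15), TMM factors (0.962 to 1.04), 1 model with 3 groups, no block and all 6 libraries, the robust quasi-likelihood test (3 residual degrees of freedom, median prior 5.12), Benjamini-Hochberg adjustment over 14601 genes and a threshold of 0.05. Standard errors were derived from the log2 fold change and the F statistic of its test, and fitted fold changes carry a prior count of 0.125. The fit was tested on simulated data. Alternatives used other scaling factors, filters, a replicate block, DESeq2 1.42.0, limma 3.58.1 on log2(FPKM + pseudocount) with pseudocounts of 1 and 0.1, and each library left out. Libraries of a group differed by more than sampling noise (chi-square over its degrees of freedom 17.4 to 37.7).

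Members named were those called in any comparison, the 3 of each histone type with the highest mean FPKM, and near-identical copies, and of each gene list up to 4 genes with the smallest adjusted p in a comparison. The members and lists were chosen with earlier results of these data known. The stem-loop was searched in GENCODE transcripts as the histone stem-loop consensus of 16 bases, with a 6-base stem and a 4-base loop. Exact binomial intervals (95%) and the 3-count limit cover counting error only.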

Additional observations from a re-analysis of the deposited data

How the results depend on the processing

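With TMM scaling replaced by RLE or upper-quartile factors, no count of called members or genes and no median moved by over 1.5 times or past the spread used here. Counts of called members were sensitive to the filter, the tool and single libraries. They are given to compare settings and are not read as results about the members. At KO day 5 against control, 3 members were called, and 6 without a filter, 1 (HIST1H4I, lower) with 5 CPM in 2 libraries, 6 with DESeq2 and 5 with limma on log2(FPKM + 1). At KO day 3 against control, 0 were called, and 2 without a filter, 1 with DESeq2 and 1 with limma on log2(FPKM + 0.1). Over the whole table the last 2 settings called 2399 and 1294 genes at day 3. At KO day 5 against KO day 3, 0 were called, and 1 without a filter. Leaving out each library gave 0 to 3 members at day 5, 0 to 1 at day 3 and 0 in every case between the days.

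Genes called in the whole table went to 3234 at day 5 and 2925 at day 3 without a filter, where 2117 and 1710 were called with it, and to 599 between the days (4 with it). With only the 2 groups compared, 1315 were called at day 5. Limma on log2(FPKM + 1) with no filter called 605, 254 and 0, limma on log2(FPKM + 1) called 1 between the days, limma on log2(FPKM + 0.1) called 0, and DESeq2 306. Leaving out each library gave 723 to 1874 genes at day 5, 282 to 1906 at day 3 and 1 to 15 between the days.

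The median log2 fold change of tested members also moved, and the members tested differ between some settings. With 5 CPM in 2 libraries, 4 members were left, at -1.11 (day 5), -1.04 (day 3) and -0.0692 (between the days). At day 3 it was -0.88 with only the 2 groups compared, -0.31 with limma on log2(FPKM + 1) and -0.0679 with that and no filter. Between the days the last 2 settings gave 0.53 and 0.20. Leaving out each library gave -0.22 to 1.02 at day 5, -0.85 to -0.15 at day 3 and 0.73 to 1.47 between the days. The summed level in controls moved from 70.9 to 52.7 CPM without HIST1H2BK.

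With the replicate number as a block, 7 members were called at day 5 (HIST1H3J joining the 3 called higher, and HIST1H2BK, HIST1H4I and HIST2H2BC lower), 6 lower at day 3 and 2 higher between the days, among 4418, 4064 and 1117 genes. Deviations of same-numbered libraries correlated at 0.303 to 0.355 over pairs of groups. The sample titles give replicate 1 the letter A and replicate 2 the letter B in every group. With 2 letters and no label for what a letter or number marks, the libraries were not treated as paired. The block turned HIST1H3H to -0.24 and HIST3H2A to -0.0241 between the days.

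Among named members that did not pass the test, leaving out 1 library turned several directions. At day 5 the ranges were -0.15 to 0.90 for HIST1H1C, -0.77 to 1.19 for HIST1H2AC, -0.90 to 1.03 for HIST1H2BD, -0.60 to 1.42 for HIST1H2BJ, -3.73 to 0.57 for HIST1H3H, -0.22 to 2.70 for HIST1H4J and -0.46 to 0.66 for HIST3H2A. At day 3 they were -2.30 to 3.64 for HIST1H1B, -0.48 to 0.98 for HIST1H2BJ, 0 to 4.05 for HIST1H3J, -0.72 to 0.16 for HIST2H2AC and -0.17 to 0.56 for HIST3H2A. The values of HIST1H1B and HIST1H3J at day 3 include fits against 0 counts, which follow the prior count and give no direction. Between the days they were -0.25 to 1.71 for HIST1H2AC, -0.65 to 1.09 for HIST1H2BJ, -0.80 to 0.58 for HIST1H2BK, -3.24 to 1.07 for HIST1H3H, -1.10 to 0.28 for HIST1H4I, -2.10 to 0.67 for HIST1H4J and -0.61 to 0.52 for HIST3H2A, and limma on log2(FPKM + 0.1) gave -0.45 for HIST1H3H. Where a library is left out its group has 1, which is assumed to vary like the others. Depth limits these values, as 32 of the 57 members did not pass the filter. The causes of these changes were not tested.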
